A study of Mus musculus with 34 samples.

Results

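Soleus and plantaris of trained aged mice were compared by RNA sequencing in 8 of the series' 34 libraries, 4 from each muscle. The 8 were chosen by their labels alone: title or source name, PoWeR group and an age of 24 months. All came from female mice; no strain or genotype is given in the labels. PoWeR is progressive weighted wheel running, voluntary running on a wheel that carries added load. It lasted 8 weeks, and the mice were killed after an overnight fast and 24 h with the wheel locked. The sedentary mice of the same age, with 5 libraries per muscle, are used here only to ask where the muscle difference itself depended on training. The label numbers 10, 12, 14 and 15 occur once in each muscle, and values are given in that order throughout.

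The labels carry an inconsistency. The titles of the plantaris libraries read soleus, their source name reads plantaris, and the extraction text names plantaris for all libraries. The source name was followed for the plantaris libraries and the title for the soleus ones. Whether the libraries of 1 muscle came from separate animals is not stated, and p-values here rest on the spread among these samples. Libraries held 15453386 to 21377975 counts. The sample is whole muscle, in which fewer cells of a type and less RNA per cell cannot be told apart.

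Soleus is a slow postural muscle and plantaris a fast muscle that works beside it at the ankle. Slow and fast fibres build the same sarcomere from different members of the same gene families: each has its own myosin heavy and light chains, troponins and calcium pump. Slow fibres rely on fat oxidation and mitochondria and fire tonically, while the fastest fibres rely on glycogen and glycolysis. Calcineurin and NFAT signalling favours the slow programme, and factors such as Sox6 and the large Maf proteins favour the fast one.

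The promoters of 2 slow and fast gene pairs are printed because Myh7 and Myh4 gave the widest ratio difference among the gene pairs measured, and Myl3 and Myl1 are light chains of the same fibre types. Each window runs from 250 bases before to 50 after a RefSeq start (build GRCm38.p6), 5′ to 3′ on the gene's strand, and the Myh7 window is 1 of 2 listed for that gene. Capitals mark matches on either strand to the MCAT element CATTCC, the TATA sequence TATAAA, the MEF2 motif and the CArG box.
Myh7 (slow heavy chain, chr14:54994577-54994876, minus strand): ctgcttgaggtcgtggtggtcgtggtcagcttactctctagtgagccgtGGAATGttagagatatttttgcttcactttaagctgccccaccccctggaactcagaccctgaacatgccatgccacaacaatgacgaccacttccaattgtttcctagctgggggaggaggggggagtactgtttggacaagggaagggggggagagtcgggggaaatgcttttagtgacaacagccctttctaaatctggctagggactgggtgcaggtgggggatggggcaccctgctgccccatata
Myh4 (fast IIb heavy chain, chr11:67237562-67237861, plus strand): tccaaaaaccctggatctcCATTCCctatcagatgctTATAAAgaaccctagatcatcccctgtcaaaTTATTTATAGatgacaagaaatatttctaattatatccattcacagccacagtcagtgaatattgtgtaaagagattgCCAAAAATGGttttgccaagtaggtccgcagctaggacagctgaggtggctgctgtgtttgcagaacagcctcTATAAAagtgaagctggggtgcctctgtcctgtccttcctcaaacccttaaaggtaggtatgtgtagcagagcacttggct
Myl3 (slow essential light chain, chr9:110763428-110763727, plus strand): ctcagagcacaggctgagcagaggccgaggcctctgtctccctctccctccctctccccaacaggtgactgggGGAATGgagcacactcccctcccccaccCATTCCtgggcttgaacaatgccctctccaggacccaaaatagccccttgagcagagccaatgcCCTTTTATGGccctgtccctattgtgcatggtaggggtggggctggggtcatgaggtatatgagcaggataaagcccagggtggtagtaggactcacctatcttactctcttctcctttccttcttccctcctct
Myl1 (fast essential light chain, chr1:66945007-66945306, minus strand): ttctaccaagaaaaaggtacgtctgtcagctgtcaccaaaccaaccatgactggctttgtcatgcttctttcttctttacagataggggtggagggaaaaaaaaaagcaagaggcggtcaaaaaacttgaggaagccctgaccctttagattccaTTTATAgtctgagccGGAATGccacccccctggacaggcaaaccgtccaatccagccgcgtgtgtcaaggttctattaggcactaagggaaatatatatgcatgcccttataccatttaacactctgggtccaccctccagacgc

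The Myh4 window held a match to each of the 4 motifs, and its MEF2 match overlaps 1 of its 3 TATAAA matches. Of these 4 motifs the printed Myh7 window held MCAT alone, and the other Myh7 window held 0 matches to any of them. Promoters were found for 11 of 11 slow sarcomere genes and 8 of 13 fast ones. An MCAT match stood in 3 of the 11 and in 5 of the 8, against 14.7% of 32851 RefSeq promoters. For TATAAA the counts were 2 and 4, against 13.6% of promoters. A MEF2 match was present for Myoz2 among the slow genes and for Myh1 and Myh4 among the fast ones, against 3.19% of promoters. The E-box CANNTG was in all 11 slow genes and 6 of the 8 fast ones, with a share of 72.3% among all promoters. A gene counted as matched if any of its windows held the motif, while the share over all promoters counts each window. Genes with several windows, such as Myh7 and Myl2, had more chances of a match, so these shares are not strictly comparable. These are letter matches in short windows, and no binding was measured.

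Between the muscles, 2392 of 13963 genes tested (17.1%) differed at an adjusted p under 0.05 in edgeR's quasi-likelihood test, not paired by label number. Of these, 1281 (9.17%) were higher in soleus and 1111 (7.96%) higher in plantaris. Counts of called list members below are to be read beside these shares of all genes tested. Differences of at least 2-fold made up 532 (3.81%) and 501 (3.59%) of the genes tested. The libraries of the muscles did not overlap at all for 3039 genes (21.8%). Soleus genes thus made up 53.6% of the calls; without TMM factors, on library totals alone, they made up 79.1% of 3110 calls, and the median of all genes moved by 0.20 from 0.00 on the log2 scale. Below, a log2 difference is soleus minus plantaris with its standard error, CPM is edgeR's library-size normalised count unit, scaled with TMM factors, and p-values are edgeR's after Benjamini-Hochberg adjustment over all genes tested unless stated otherwise. Leaving out 1 library gave 1594 calls without soleus 12 at the least and 2934 without plantaris 12 at the most.

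The slow heavy chain Myh7 and the fast chain Myh4 separated the muscles in all 8 libraries, on the side that the labels followed here give. The IIa chain Myh2 overlapped. Myh7, the slow heavy chain (chromosome 14, 54970684 to 54994626, mm10), had 22738, 27170.3, 31989 and 24675 CPM in soleus and 1812, 613, 734 and 311 CPM in plantaris. Myh4, the IIb heavy chain of glycolytic fibres (chromosome 11, 67238029 to 67260446), had 414, 191, 426 and 30.04 CPM in soleus and 43749.5, 14100.4, 53969.6 and 32298 CPM in plantaris. The lowest soleus value of Myh7 was thus above the highest of plantaris, number 10, and the order was the other way for Myh4. The log2 differences were 4.94 ± 0.52 (adjusted p = 0.000205) and -7.09 ± 0.94 (adjusted p = 0.00146). Myh1, the IIx heavy chain, was higher in plantaris (log2 -2.34 ± 0.50, adjusted p = 0.0105), with soleus 10 at 9863 CPM and the other soleus libraries at 1676 to 3753 CPM. Myh2, the IIa heavy chain of fast oxidative fibres, had 8894, 18454, 13221 and 16800.0 CPM in soleus and 5121, 10547, 7002 and 12022 CPM in plantaris; it did not pass the test (log2 0.73 ± 0.30, adjusted p = 0.129) and did pass with the label number as a block (adjusted p = 0.00478), being higher in soleus for all 4 numbers. Reads of these long, similar genes may be split between copies, which the counting method, not given in the sources used here, would decide.

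The composition of each muscle also varied among its libraries, as shares of the 4 adult heavy chains' counts show. Myh7 made up 54.3, 57.2, 64.8 and 54.6% in soleus and 2.68, 1.41, 0.821 and 0.4001% in plantaris. Myh4 made up 0.987, 0.403, 0.863 and 0.0665% in soleus and 64.7, 32.5, 60.4 and 41.6% in plantaris, so plantaris 12 and 15 had less Myh4 than plantaris 10 and 14. In those libraries Myh1 held 41.8 and 42.6% and Myh2 24.3 and 15.5%. The shares of Myh7, Myh1 and Myh4 differed between the muscles (two-sided exact permutation p = 0.0286 each, the smallest that 4 against 4 can give; 0.0476 adjusted over the 5 shares tested). The Myh2 share overlapped (exact permutation p = 0.0571). Per base of exon, the Myh2 share no longer overlapped and the Myh1 share did (exact permutation p = 0.0286 and 0.0571), so the calls for these 2 depend on the scale.

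**Figure D1:**
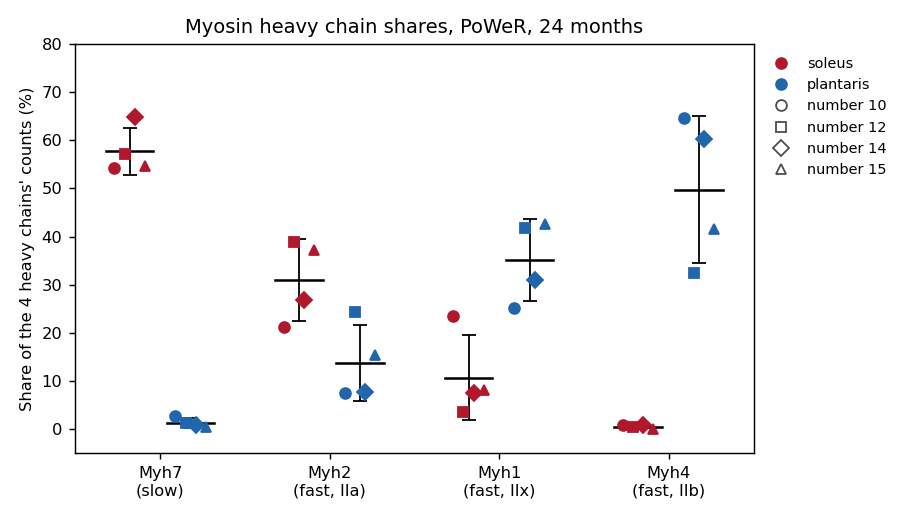
Share of the summed counts of Myh7, Myh2, Myh1 and Myh4 (vertical axis, %) held by each gene in each library; shapes give the label number, horizontal lines the mean and bars the SD of 4 libraries. Myh7 held 54.3 to 64.8% in soleus and 0.400 to 2.68% in plantaris, while the Myh2 shares of the muscles overlapped.

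Beyond the heavy chains, 10 of 11 slow sarcomere genes were higher in soleus and 12 of 13 fast ones higher in plantaris, where 9.17% and 7.96% of all genes tested were called in those directions. The median log2 differences were 4.40 and -1.88, against 0.00 over all genes. Among thin filament genes, Tnni1, the inhibitory troponin of slow fibres, had 1049, 1470.1, 1862 and 1708 CPM in soleus and 110.0, 42.1, 47.6 and 18.7 CPM in plantaris. Its fast counterpart Tnni2 had 1589.8, 1478, 1194 and 1369 CPM and 4829, 3996, 6004 and 4752 CPM. The slow gene was 27.9-fold higher in soleus and the fast gene 3.48-fold higher in plantaris (adjusted p = 0.000473 and 7.33e-05). The same asymmetry held for the calcium-binding troponins Tnnc1 (4.62 ± 0.45) and Tnnc2 (-1.75 ± 0.18), the tropomyosin-binding troponins Tnnt1 (4.47 ± 0.41) and Tnnt3 (-1.73 ± 0.20), and the tropomyosins Tpm3 (4.51 ± 0.38) and Tpm1 (-1.78 ± 0.25). In each of these pairs the slow member differed by more than the fast one.

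Among thick filament genes, the slow regulatory light chain Myl2 differed by 3.87 ± 0.24 and the slow essential light chains Myl3 by 4.40 ± 0.40 and Myl6b by 4.36 ± 0.44. The fast light chains Mylpf and Myl1 differed by -2.29 ± 0.21 and -1.88 ± 0.21. Mybpc2, the fast myosin-binding protein C, had 75.4, 23.6, 46.99 and 1.28 CPM in soleus and 4954, 1688, 5820.0 and 2966 CPM in plantaris (log2 -6.71 ± 1.16, adjusted p = 0.00718). Soleus 15 was the lowest for Mybpc2 and also for Myh4. The slow paralogue Mybpc1 was the exception of its list: it had 4548 to 5666 CPM in soleus and 4067 to 6453 CPM in plantaris (log2 -0.05 ± 0.18, adjusted p = 0.893).

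At the Z-disc, Actn3, the fast alpha-actinin, was 19.4-fold higher in plantaris, where it had 8051, 2674, 8473 and 3638 CPM against 613, 232, 187 and 142 CPM in soleus. The calcineurin-binding calsarcins split by fibre type, with Myoz2 higher in soleus (2.30 ± 0.19) and Myoz1 higher in plantaris (-2.36 ± 0.18). Of 6 tested genes of developing or cardiac sarcomeres 3 were higher in soleus. The embryonic heavy chain Myh3 had 40.3, 152, 146 and 143 CPM in soleus and 8.72, 11.5, 9.11 and 19.6 CPM in plantaris (log2 3.29 ± 0.47, adjusted p = 0.00206). The cardiac heavy chain Myh6, which neighbours Myh7 and resembles it closely, differed by 3.36 ± 0.29, and the cardiac troponin Tnnt2 by 1.60 ± 0.33.

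A ratio within a library does not depend on how libraries are scaled, and all 15 slow to fast pairs fell apart by muscle without overlap. The two-sided exact permutation p was 0.0286 for each, the smallest possible here and the same after adjustment over the 15. The Myh7 to Myh4 log2 ratio was 5.78, 7.15, 6.23 and 9.66 in soleus and -4.59, -4.52, -6.20 and -6.70 in plantaris. The Atp2a2 to Atp2a1 ratio of the slow and fast calcium pumps was -0.18, 0.25, 0.39 and 0.39 in soleus and -5.54, -5.73, -7.11 and -6.98 in plantaris. The soleus ratios of the pumps, the 3 troponin pairs and the tropomyosins lay within 1 log2 unit of equal CPM, while plantaris was far to the fast side. The mean difference between muscles ran from 2.34 for Eno1 to Eno3, the broad and muscle enolases, to 12.71 for the heavy chains. Among plantaris libraries number 10 lay nearest to soleus in 8 pairs, the troponins, light chains, tropomyosins, calcium pumps and calsequestrins, and number 12 in the other 7, the heavy chains among them.

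**Figure D2:**
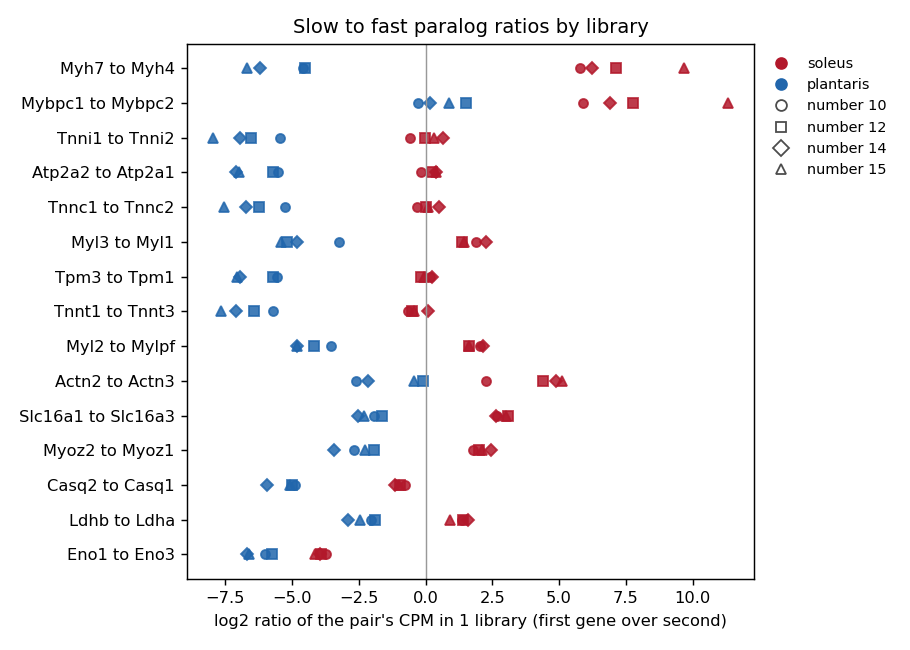
Log2 ratio of the CPM of 2 paralogues in each library (horizontal axis, first gene over second), with soleus in red, plantaris in blue and shapes for the label number. In all 15 pairs the 4 soleus libraries lie to the right of the 4 plantaris libraries.

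Several calcium handling genes differed between the muscles in either direction. Of 26 genes of calcium release and uptake 4 were higher in soleus and 8 in plantaris, against 9.17% and 7.96% of all genes tested, and 14 were not called. Atp2a2, the slow and cardiac SERCA pump (chromosome 5, 122453513 to 122502225), had 8177, 9309.9, 9919.9 and 9421 CPM in soleus and 638, 281, 262 and 201 CPM in plantaris. The fast pump Atp2a1 had 9238, 7852, 7574 and 7191 CPM and 29748, 14906, 36288 and 25344 CPM. The differences were 4.74 ± 0.37 and -1.74 ± 0.26 (adjusted p = 2.49e-05 and 0.000972). The small membrane peptides that inhibit these pumps also split. Pln, phospholamban, had 3.57, 2.78, 12.2 and 7.06 CPM in soleus and 0.872, 0.611, 1.45 and 0.758 CPM in plantaris and was 6.97-fold higher in soleus. Mrln, myoregulin, had 6.44, 4.06, 4.68 and 4.08 CPM and 22.7, 13.4, 22.3 and 15.8 CPM and was 3.85-fold higher in plantaris. Sln, sarcolipin, had 417, 415, 158 and 228 CPM in soleus and 37.5, 76.3, 4.698 and 2.76 CPM in plantaris. Its libraries did not overlap, but plantaris 10 and 12 stood far above plantaris 14 and 15, and it did not pass the test (log2 3.33 ± 1.03, adjusted p = 0.0683; 0.0416 with the block).

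Among calcium buffers, parvalbumin (Pvalb), which speeds relaxation of fast fibres, had 396, 112, 133 and 82.3 CPM in soleus and 3666, 1984, 5603 and 2769 CPM in plantaris. Soleus 10 was the highest soleus library for Pvalb, as it was for Actn3 and Myh1. Of the calsequestrins that store calcium in the reticulum, Casq2 was higher in soleus (2.87 ± 0.16) and Casq1 higher in plantaris (-1.43 ± 0.26). Ryr3, a minor release channel of adult muscle, had 4.92, 8.61, 7.89 and 4.14 CPM in soleus and 0.934, 0.917, 1.01 and 0.596 CPM in plantaris (log2 2.89 ± 0.32, adjusted p = 0.000147). The kinase gene Camk2a was 4.06-fold higher in plantaris. The calcium list's median was -0.20 and changed sign, to 0.01, on library totals alone.

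Of 16 ion channel and pump genes 5 were higher in soleus and 4 in plantaris, against 9.17% and 7.96% of all genes tested. Beta subunits of the sodium pump went in opposite directions. The beta subunit Atp1b2 had 13.6, 9.78, 11.6 and 6.59 CPM in soleus and 185, 83.9, 224 and 105 CPM in plantaris (log2 -3.85 ± 0.37, adjusted p = 0.000168), whereas the beta subunit Atp1b1 differed by 1.35 ± 0.27 and was higher in soleus. The plantaris count was 2 without soleus 12, plantaris 14 or plantaris 15. Among potassium channels, Kcnc4 was higher in plantaris (-2.83 ± 0.58), and Kcnn3, a calcium-activated channel, was higher in soleus (1.81 ± 0.29).

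Regulators of the slow and oxidative programme were more often higher in soleus: 14 of 27 were higher there and 4 in plantaris, with a median log2 difference of 0.52. Leaving out 1 library gave 10 to 13 soleus calls, and leaving out number 12 of both muscles, an alternative added after seeing the data, gave 6. The plantaris count was 2 without soleus 12, soleus 14, soleus 15 or plantaris 14. Prox1, a homeobox factor active in slow fibres, had 54.1, 29.3, 49.7 and 30.1 CPM in soleus and 3.86, 2.995, 2.67 and 1.57 CPM in plantaris (log2 3.88 ± 0.31, adjusted p = 3.12e-05). The estrogen-related receptors Esrrb and Esrrg, which drive oxidative genes, differed by 1.89 ± 0.16 and 1.73 ± 0.23. The calcineurin feedback genes Rcan1 and Rcan2 were 3.44-fold and 2.67-fold higher in soleus. The subunits of calcineurin itself went the other way: Ppp3cb had 115 to 138 CPM in soleus and 178 to 364 CPM in plantaris (-1.13 ± 0.19, adjusted p = 0.00186), with Ppp3ca and Ppp3r1 also higher in plantaris (-0.85 ± 0.21 and -0.59 ± 0.14). Ppp3ca overlapped between muscles and lost its call without soleus 12, soleus 14, soleus 15 or plantaris 14.

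Among regulators of the fast programme 5 of 12 were higher in plantaris and 1 in soleus; the plantaris count was 3 without soleus 12, soleus 15, plantaris 14 or plantaris 15, and the soleus count was 0 without soleus 10, soleus 14, plantaris 10, plantaris 12 or plantaris 14 and 3 with the block. Maf had 28.97, 15.7, 19.4 and 14.9 CPM in soleus and 159, 82.95, 254 and 122 CPM in plantaris, and Mafa 5.62, 6.61, 7.77 and 8.46 CPM and 38.9, 19.2, 98.5 and 41.6 CPM. Both are large Maf factors, and they differed by -2.97 ± 0.37 and -2.80 ± 0.47 (adjusted p = 0.00072 and 0.00466). Sox6, a repressor of slow genes, was 3.05-fold higher in plantaris (-1.61 ± 0.16). The list's median of -0.06 became 0.14 on library totals alone, while these 3 genes stayed below zero.

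Homeobox and other position factors, which keep a record of where in the limb a muscle formed, differed in both directions. Of 24 tested, 7 were higher in soleus and 7 in plantaris, where leaving out plantaris 14 gave 4. Hoxa11 had 1.697, 1.61, 1.46 and 2.63 CPM in soleus and 5.42, 7.15, 9.54 and 8.45 CPM in plantaris. Hoxa13 had 3.86, 2.89, 2.28 and 4.03 CPM and 9.65, 12.7, 13.6 and 13.8 CPM. These distal HoxA genes were 4.12-fold and 3.802-fold higher in plantaris (adjusted p = 0.000391 and 0.000149). The zinc finger gene Zic1 (-2.36 ± 0.26) and the homeobox gene Six2 (-2.89 ± 0.62) were higher there too, Six2 at 0.0585 to 0.5001 CPM in soleus and 0.856 to 2.82 CPM in plantaris. Meis1, Barx2, Tbx3 and En1 were higher in soleus (1.73 ± 0.31, 1.67 ± 0.22, 1.23 ± 0.18 and 1.21 ± 0.23).

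Transcripts of sugar metabolism genes ran higher in plantaris. Of 22 glycolysis genes 15 were higher there and 2 in soleus (median -1.23), and of 16 glycogen genes 8 were higher in plantaris and 0 in soleus (median -0.93); 1 glycogen gene was higher in soleus with the block or without plantaris 15. Slc16a3, the transporter that exports lactate (chromosome 11, 120948480 to 120960868), had 18.4, 8.502, 14.9 and 10.2 CPM in soleus and 209, 212, 342 and 304 CPM in plantaris. Its log2 difference was -4.36 ± 0.29 (adjusted p = 1.59e-05), while Slc16a1, the transporter known for lactate uptake, was higher in soleus (0.63 ± 0.15, adjusted p = 0.0122). The lactate dehydrogenase genes divided the same way, with the muscle form Ldha 4.66-fold higher in plantaris and the heart form Ldhb 2.74-fold higher in soleus. Gpd1, which passes reducing equivalents from glycolysis to the glycerol phosphate shuttle, had 43.01, 38.5, 34.8 and 24.3 CPM in soleus and 312, 215, 619 and 386 CPM in plantaris. Muscle enolase Eno3 and the muscle fructose bisphosphatase Fbp2 differed by -2.26 ± 0.27 and -2.36 ± 0.35. Pfkfb3, an activator of phosphofructokinase, was called at an adjusted p of 0.0482 and was not with the block (0.112); plantaris 10 and 14 had 266 and 346 CPM, plantaris 12 and 15 65.8 and 25.9 CPM, and soleus 19.2 to 32.5 CPM. That call was also lost when soleus 10, soleus 12, soleus 14, soleus 15, plantaris 10 or plantaris 14 was left out.

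The phosphorylase kinase subunits that start glycogen breakdown stood together, with Phkg1 at 57.6, 57.9, 63.5 and 79.05 CPM in soleus and 328, 272, 500.4 and 406 CPM in plantaris (-2.55 ± 0.20) and Phkb at -1.91 ± 0.18. The glycogen-binding protein Stbd1 differed by -2.12 ± 0.31. Of 13 genes of AMP kinase and the phosphagen system 6 were higher in plantaris and 1 in soleus, or 2 with the block or without plantaris 12. Prkag3, the gamma subunit of AMP kinase typical of glycolytic muscle, had 22.00, 10.5, 7.48 and 9.801 CPM in soleus and 95.4, 35.8, 100.2 and 52.3 CPM in plantaris. The AMP deaminases were opposed: the muscle form Ampd1 was higher in plantaris (-1.29 ± 0.23) and Ampd3 in soleus (1.64 ± 0.23). The median of this list, -0.17, became 0.03 on library totals alone.

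Glucose uptake and insulin signalling genes mostly had a positive difference, 11 of 14 with a median of 0.27. Of these 3 were higher in soleus and 1 in plantaris. The soleus count was 5 with the block and 1 without soleus 10, plantaris 14 or plantaris 15. The plantaris call was Tbc1d1, a regulator of glucose transporter traffic, which was 4.77-fold higher there.

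Transcripts of fat use genes ran higher in soleus, by smaller steps. Of 31 genes 13 were higher in soleus and 0 in plantaris, and 29 of 31 had a positive difference (median 0.39). The count was 4, 5, 5, 7 and 8 without soleus 10, soleus 12, plantaris 14, soleus 15 and plantaris 15. Fabp3, the muscle fatty acid binding protein, had 913, 909, 848 and 945 CPM in soleus and 322, 537, 239 and 382 CPM in plantaris. Lpl, which releases fatty acids from blood lipoproteins, had 3125, 3014, 3233 and 2498 CPM and 1163, 1461, 971 and 1394 CPM. They were 2.44-fold and 2.38-fold higher in soleus (adjusted p = 0.00183 and 0.000603), and the acyl-CoA synthetase Acsl1 was 1.69-fold higher. Of lipid synthesis and ketone genes, 2 of 15 (median 0.30) and 1 of 4 (median 0.16) were called, each higher in soleus. Over all genes tested 9.17% were called in that direction. Lipid synthesis had 1 without soleus 10, soleus 12, soleus 14, soleus 15, plantaris 14 or plantaris 15, and 1 gene higher in plantaris without plantaris 12. Dgat2 of the first list, which makes triglyceride, had 176, 204, 206 and 185 CPM in soleus and 52.3, 43.95, 32.2 and 60.5 CPM in plantaris, and Bdh1 of the second, a ketone body dehydrogenase, 175, 239.8, 284 and 299 CPM and 50.9, 82.95, 50.5 and 125 CPM. These differed by 2.03 ± 0.18 and 1.69 ± 0.30.

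Amino acid and polyamine genes included 4 of 14 that were higher in plantaris and 1 higher in soleus. Smox, spermine oxidase, had 7.61, 10.4, 9.18 and 7.06 CPM in soleus and 37.1, 23.9, 59.05 and 63.9 CPM in plantaris. Gpt2, the mitochondrial alanine aminotransferase, was 5.29-fold and Glul, glutamine synthetase, 2.48-fold higher in plantaris. Among 19 genes of the TCA cycle the isocitrate dehydrogenases were opposed, the NADP-dependent Idh2 being higher in soleus (1.72 ± 0.17) and Idh3a, a subunit of the NAD-dependent enzyme, higher in plantaris (-0.93 ± 0.20). Of the TCA cycle genes 1 was higher in soleus and 2 in plantaris, shares near the 9.17% and 7.96% over all genes; the plantaris count was 4 with the block and 5 without plantaris 10 or plantaris 12. The 1 amino acid gene higher in soleus was not called without soleus 12. The medians of these lists, -0.14 and -0.18, became 0.07 and 0.02 on library totals alone.

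**Figure D3:**
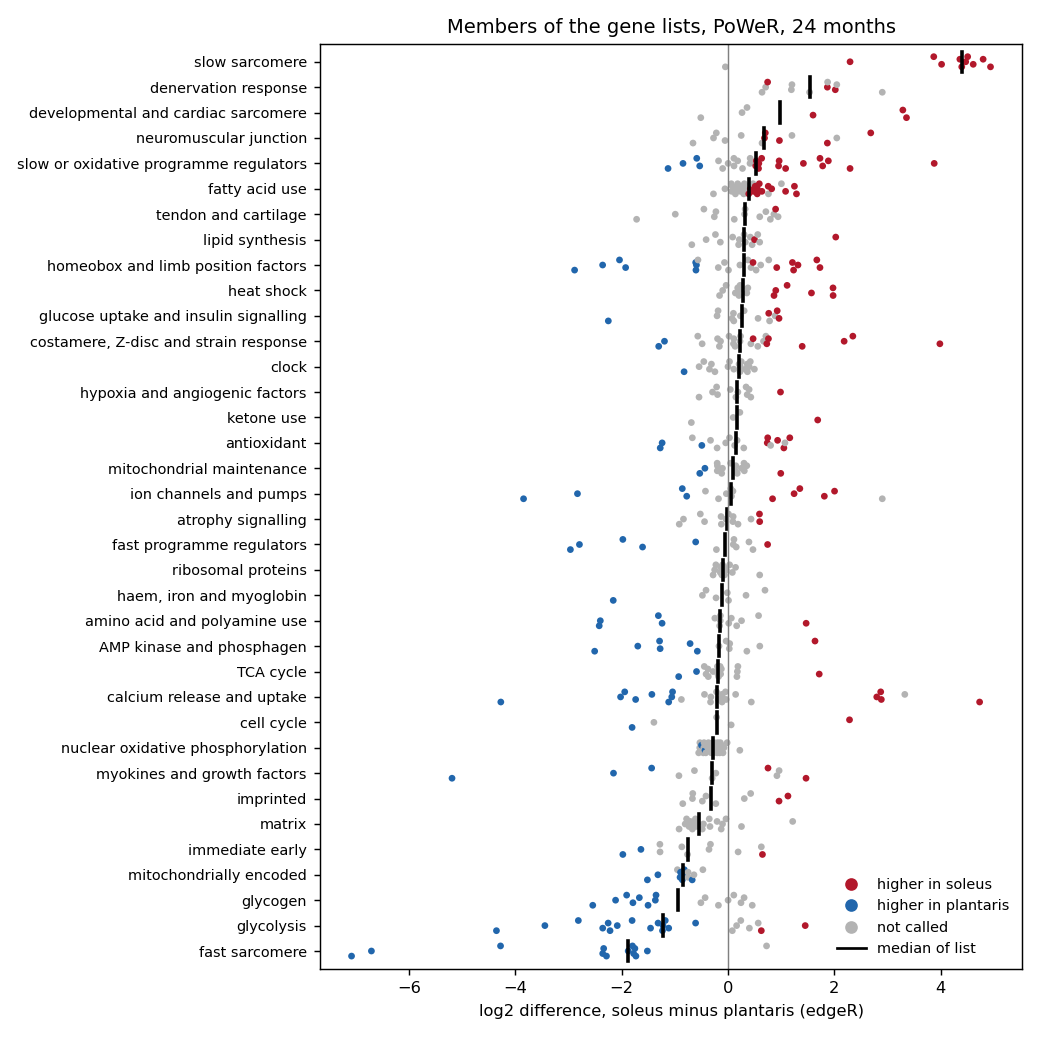
Log2 difference, soleus minus plantaris (horizontal axis), of each tested member of 36 gene lists; red and blue points passed edgeR's test, grey ones did not, and black bars are list medians. The slow and fast sarcomere lists lie at the ends with medians of 4.40 and -1.88, and no mitochondrially encoded gene has a positive value.

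Of the respiratory chain's genes, 0 passed the test as higher in the slow muscle of these trained mice. Of 13 mitochondrially encoded genes 8 were higher in plantaris and 0 in soleus, and the median was -0.84. mt-Nd3, a subunit of complex I, had 465, 474, 389.8 and 465 CPM in soleus and 801, 1356, 1233 and 1748 CPM in plantaris. mt-Co3, a subunit of cytochrome oxidase, had 5654, 5754, 5574 and 6647 CPM and 7976, 11764, 9890.4 and 13244 CPM. Neither gene overlapped between the muscles, and the log2 differences were -1.52 ± 0.21 and -0.86 ± 0.19 (adjusted p = 0.000647 and 0.0101). The count rose to 12 with the block and to 11 without plantaris 10 or plantaris 12. It fell to 3 without soleus 12 or soleus 14, and to 4 without soleus 10, plantaris 14 or plantaris 15. As a share of all counts these genes held 10.4, 11.3, 10.7 and 13.2% in soleus and 12.1, 16.96, 13.2 and 19.8% in plantaris, which overlapped at plantaris 10 (two-sided exact permutation p = 0.0571).

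Of 39 nuclear genes of oxidative phosphorylation 2 were called, both higher in plantaris, among them the complex I subunit Ndufs3 (-0.43 ± 0.13). The number called was no larger a share than the 7.96% over all genes tested. A positive difference was found for 1 of the 39, against 50.1% of all genes tested, and the median was -0.28. Ndufs3 had 123 to 141 CPM in soleus and 151 to 206 CPM in plantaris. The count was 6 with the block, 16 without plantaris 10, 1 without soleus 10, and 0 without soleus 12, soleus 14, soleus 15, plantaris 14 or plantaris 15. DESeq2 called 10 of them, and all 13 mitochondrially encoded genes. On library totals alone the edgeR count was 0, with a median of -0.07. Myoglobin (Mb), the oxygen store of oxidative fibres, did not pass the test either: it had 6157, 6214, 6572 and 6954 CPM in soleus and 3772, 7112, 4202 and 5388 CPM in plantaris (log2 0.34 ± 0.21, adjusted p = 0.309). Of 8 genes of haem, iron and myoglobin 1 was called, and 2 were without plantaris 12 or soleus 12. It was the iron exporter Slc40a1, ferroportin, which had 7.37, 7.502, 6.08 and 10.6 CPM in soleus and 37.4, 32.5, 34.6 and 36.7 CPM in plantaris and was 4.47-fold higher in plantaris (adjusted p = 2.15e-05).

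Growth regulators differed in both directions. Mstn, myostatin, an inhibitor of muscle growth (chromosome 1, 53061640 to 53068079), had 1.52, 1.33, 1.69 and 0.3500 CPM in soleus and 62.2, 18.5, 67.2 and 32.9 CPM in plantaris (log2 -5.19 ± 0.56, adjusted p = 0.000511). Il15, a cytokine that muscle secretes, had 1.52, 1.61, 1.46 and 1.69 CPM in soleus and 3.24, 9.78, 6.72 and 8.34 CPM in plantaris, and was higher in plantaris (-2.16 ± 0.32). Metrnl and Fndc5, which also encode secreted or shed proteins, were higher in soleus (1.47 ± 0.26 and 0.75 ± 0.17). In all, 2 of 11 such genes were higher in soleus and 3 in plantaris; the soleus count was 4 with the block or without plantaris 12. Of 12 hypoxia and angiogenic genes the growth factor gene Fgf1 alone was called, higher in soleus (0.99 ± 0.22); 2 were called without soleus 10, and 0 with number 12 of both muscles left out.

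Genes of the Z-disc and of the response to strain were more often higher in soleus, 7 of 24 against 2 in plantaris. Over all genes tested 9.17% and 7.96% were called in those directions, and the plantaris count is near its share. The soleus count was 11 with the block and 4 without soleus 14, and the plantaris count 1 without soleus 12, soleus 14, soleus 15 or plantaris 14. Fhl2, a LIM domain adaptor, had 20.3, 25.8, 36.7 and 30.3 CPM in soleus and 2.24, 2.32, 1.23 and 1.300 CPM in plantaris. Ankrd2, a stretch-responsive ankyrin repeat protein, had 392, 797, 783 and 999 CPM and 117, 204, 102 and 230.4 CPM. The differences were 3.99 ± 0.26 and 2.19 ± 0.34 (adjusted p = 7.66e-06 and 0.00185), and the PDZ and LIM domain genes Pdlim1 and Pdlim3 went in opposite directions (2.35 ± 0.20 and -1.30 ± 0.25).

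Of 16 heat shock genes 6 were higher in soleus and 0 in plantaris. Hspb7, a small heat shock protein of striated muscle, had 3078, 3966, 3981 and 4768 CPM in soleus and 1144, 1533, 998 and 1640.3 CPM in plantaris (1.57 ± 0.21). The near-identical inducible genes Hspa1a and Hspa1b, whose reads may be exchanged, differed by 1.98 ± 0.32 and 1.98 ± 0.29, and the co-chaperone Bag3 by 0.90 ± 0.12. Of 18 antioxidant genes 5 were higher in soleus and 3 in plantaris, against 9.17% and 7.96% of all genes tested. The soleus genes included catalase (Cat, 1.16 ± 0.18) and Nqo1 (1.05 ± 0.19), and the plantaris genes Aldh1a1 (-1.28 ± 0.20). The plantaris count was 1 without soleus 12, soleus 14, soleus 15 or plantaris 14. Of 16 ribosomal protein genes 0 were called by edgeR or DESeq2, and 0 had an unadjusted p under 0.05 (median -0.09, or 0.11 on library totals alone). With the block 1 was called, Rpl3, which had a log2 difference of 0.60 ± 0.32 without it.

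At the neuromuscular junction 5 of 13 genes were higher in soleus and 0 in plantaris; with the block the counts were 8 and 1. Colq, the collagen tail that anchors acetylcholinesterase, had 35.5, 32.2, 47.3 and 14.2 CPM in soleus and 9.402, 4.28, 3.98 and 2.44 CPM in plantaris. Chrnd, the delta subunit of the acetylcholine receptor, had 19.6, 15.9, 9.94 and 14.5 CPM and 5.98, 6.17, 1.73 and 2.44 CPM. Dok7, an activator of the receptor kinase MuSK, had 37.2, 47.5, 40.6 and 45.8 CPM and 19.6, 20.5, 19.01 and 28.2 CPM. The differences were 2.69 ± 0.48, 1.87 ± 0.39 and 0.97 ± 0.15 (adjusted p = 0.00577, 0.00892 and 0.00102).

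Of 11 genes listed for the denervation response 3 were higher in soleus: Ncam1 (2.02 ± 0.28), Chrnd and Hdac9 (0.75 ± 0.21). The list does not imply that each member rises in denervated fibres, and Chrnd is also counted at the junction above. All 11 had a positive difference, with a median of 1.54 against -0.15 in the sedentary mice described below, and with the block 8 were called. Hdac9 lost its call without soleus 10, soleus 14, plantaris 10, plantaris 12 or plantaris 14. Numbers 10 and 12 were high in both muscles for several members named here after their values were seen. Runx1, a transcription factor of denervated muscle, had 33.9, 38.4, 3.27 and 9.39 CPM in soleus and 12.2, 10.3, 2.096 and 4.66 CPM in plantaris. Gdf5, a bone morphogenetic protein family member, had 10.4, 11.1, 0.526 and 3.21 CPM and 4.73, 1.41, 0.289 and 0.433 CPM. Neither passed the test (adjusted p = 0.269 and 0.273), and both passed with the block (adjusted p = 0.000775 and 0.00394). Summed over the list, soleus held 381, 469, 127 and 188 CPM and plantaris 236, 135, 64.2 and 80.3 CPM.

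Over all genes tested 17.1% were called, and the markers of other cells are set beside that share. By edgeR 0 of 12 endothelial, 0 of 10 macrophage, 0 of 8 adipocyte, 0 of 8 Schwann cell and 0 of 5 red blood cell markers were called. At an unadjusted p under 0.05 there was 1 Schwann cell marker and 0 of the others, and DESeq2 called the same numbers. Without plantaris 12 or soleus 10 edgeR called 1 endothelial marker, and with the block 1 Schwann cell marker, higher in plantaris. Of 8 smooth muscle and pericyte markers Cspg4, a pericyte proteoglycan, was higher in soleus (0.87 ± 0.15). Of 7 neutrophil and mast cell markers S100a9, a calcium-binding protein of neutrophils, was higher in plantaris (-1.91 ± 0.59); that call was lost without soleus 12, soleus 14, soleus 15, plantaris 10, plantaris 12 or plantaris 15. The muscle stem cell markers Pax7 and Sdc4 were higher in soleus (1.56 ± 0.40 and 1.10 ± 0.20), 2 of 10; the Pax7 call was lost without soleus 14. Of 8 progenitor cell markers 2 were higher in plantaris, Cd55 at 16.6, 10.7, 7.71 and 12.3 CPM in soleus and 56.2, 64.9, 60.2 and 41.4 CPM in plantaris (-2.24 ± 0.22) and Clec3b (9.48 to 14.03 CPM against 14.6 to 47.3 CPM, -1.19 ± 0.35). Clec3b was highest in plantaris 12, and its call was lost without soleus 10, soleus 12, soleus 14, soleus 15 or plantaris 14. The adipocyte markers summed to 1337 CPM in plantaris 12, 114 to 183 CPM in the other plantaris libraries and 247 to 437 CPM in soleus. The Schwann cell markers summed to 293 CPM there against 46.9 to 55.9 CPM in the other plantaris libraries and 65.1 to 115 CPM in soleus. Without plantaris 12 the adipocyte median went from -0.56 to 1.85 with 4 members higher in soleus, the Schwann median from -0.69 to 0.63 with 1, and the macrophage median from -0.35 to 0.42 with 0. Whether fat, nerve or immune cells in plantaris 12 moved other genes was not tested; the slow and fast sarcomere counts were 10 and 12 with and without it.

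**Figure D4:**
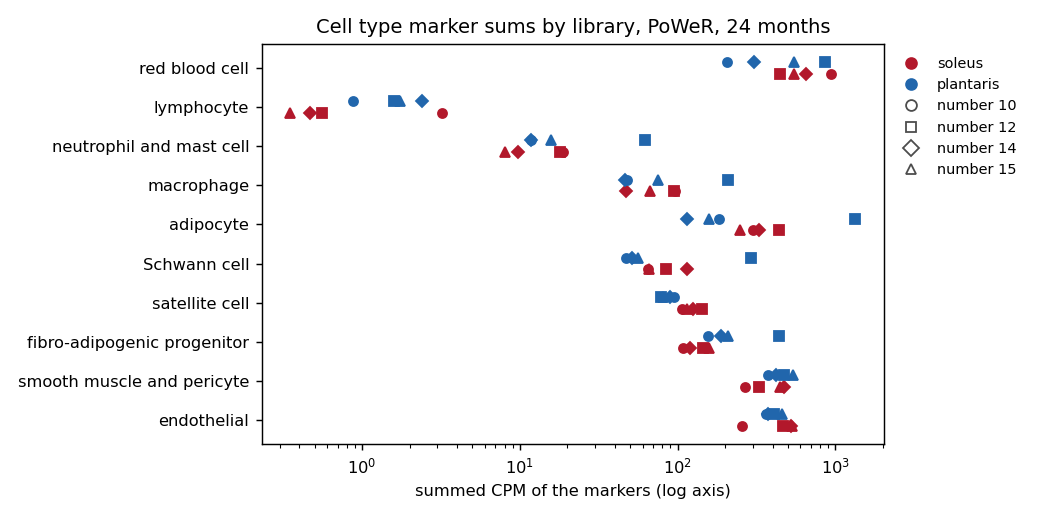
Summed CPM (horizontal log axis) of the tested markers of 10 cell types in each library, soleus in red and plantaris in blue, with shapes for the label number. The plantaris number 12 square lies to the right of the other plantaris libraries for adipocyte (1337 CPM) and Schwann cell markers (293 CPM), and also for macrophage, progenitor and neutrophil markers.

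Of 20 matrix genes 0 were called by edgeR, with 1 at an unadjusted p under 0.05 and 1 called by DESeq2; with the block 1 was higher in each muscle, and 1 was higher in plantaris without plantaris 12. The median was -0.54 and -0.11 without plantaris 12. Among 14 tendon and cartilage genes the tendon factor Scx was higher in soleus (11.9 to 15.9 CPM against 4.77 to 10.3 CPM, log2 0.90 ± 0.23); this call was lost without soleus 10 or soleus 14. The soleus count was 4 with the block and 3 without plantaris 12, and 1 member was higher in plantaris without plantaris 10. Of 10 imprinted genes 2 were higher in soleus, against 9.17% of all genes tested. They were the noncoding RNA H19 and the insulin signalling adaptor Grb10 (1.13 ± 0.29 and 0.96 ± 0.13). H19 overlapped between muscles and lost its call without soleus 10, soleus 12, plantaris 14 or plantaris 15. Of 19 clock genes Rora, a nuclear receptor, was higher in plantaris (-0.83 ± 0.18). With the block 3 were higher there and without plantaris 12 it was 2, while 1 was higher in soleus without soleus 10 or plantaris 10.

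Smaller groups held a few further calls. Of 5 cell cycle genes Rrm2, a subunit of ribonucleotide reductase, had 5.501, 8.78, 4.09 and 5.25 CPM in soleus and 1.25, 1.41, 0.723 and 1.41 CPM in plantaris, and Mcm2, a subunit of the replicative helicase, 2.46, 2.001, 2.75 and 2.45 CPM and 7.97, 5.81, 11.6 and 8.504 CPM. They differed in opposite directions (2.29 ± 0.32 and -1.81 ± 0.24, adjusted p = 0.000575 and 0.000456). Bnip3, a mitophagy receptor, was 1.99-fold higher in soleus, while Bnip3l and Fundc1, mitophagy receptors too, were higher in plantaris (-0.53 ± 0.13 and -0.43 ± 0.12); these were the 3 calls among 16 mitochondrial maintenance genes. Bnip3l lost its call without soleus 15, and Fundc1 without soleus 12, soleus 14, soleus 15, plantaris 14 or plantaris 15. Nr4a3, an orphan nuclear receptor of the immediate early group, had 1.11, 2.001, 1.99 and 1.87 CPM in soleus and 2.86, 9.41, 3.04 and 6.39 CPM in plantaris (-1.64 ± 0.40, adjusted p = 0.0165). Fbxo21, a ubiquitin ligase subunit of the atrophy list, had 23.6, 20.1, 21.3 and 21.2 CPM in soleus and 14.2, 15.04, 13.7 and 14.2 CPM in plantaris (0.59 ± 0.11). The atrophy ligases Fbxo32 and Trim63, named after their values were seen, did not pass the test (adjusted p = 0.374 and 0.406), and both were highest in plantaris 10, at 2024 and 502 CPM. Of 2 lymphocyte markers tested 1 was called, the T cell gene Cd3e. It had 0, 0, 0.0584 and 0.117 CPM in soleus, too few reads for a fold, and 0.809, 0.856, 1.66 and 0.975 CPM in plantaris (adjusted p = 0.00168). The other, Cd79a, went the other way (log2 0.94) and was not called. Its direction rested on soleus 10: without that library 0 of the 2 markers had a positive difference.

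Several of the 12 largest differences in each direction lay outside the lists. On the soleus side Tecrl, which is related to enzymes of fatty acid elongation (chromosome 5, 83278145 to 83355195), had 11.3, 30.8, 24.7 and 29.1 CPM in soleus and 0.374, 0.428, 0.0723 and 0 CPM in plantaris (log2 6.74 ± 0.58, which rests on few plantaris reads). Sim1, a transcription factor of the bHLH-PAS family (chromosome 10, 50894754 to 50989152), had 12.5, 6.502, 6.49 and 7.64 CPM in soleus and 0.0623, 0.183, 0.506 and 0.217 CPM in plantaris. Cdh22, a cadherin, had 8.603, 20.1, 13.6 and 15.3 CPM and 0.311, 0.489, 0.434 and 0.271 CPM. The differences of Sim1 and Cdh22 were 5.10 ± 0.44 and 5.24 ± 0.33 (adjusted p = 3.12e-05 and 5.7e-06). Ndrg4 and the synaptic vesicle gene Sv2b followed (4.90 ± 0.47 and 4.91 ± 0.60), with Ndrg4 at 36.2 CPM in soleus 10 and 91.8 to 128 CPM in the other soleus libraries. The noncoding genes Mhrt (5.32 ± 0.58) and Gm31251 (4.56 ± 0.45) overlap Myh7 on the other strand; since strandedness is not given in the sources used here, their reads cannot be told apart from those of Myh7. Gm12295 differed by 4.60 ± 0.37.

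On the plantaris side Odf3l2, named for an outer dense fibre protein of sperm tails (chromosome 10, 79639526 to 79645738), had 0.117, 0.0556, 0 and 0.175 CPM in soleus and 31.9, 29.3, 11.3 and 28.8 CPM in plantaris (adjusted p = 2.13e-05). With so few soleus reads its fitted log2 difference of -8.08 depends on the prior count, so its rank among the largest is not firm. With 0.5 CPM added, its difference between same-numbered libraries was -5.74 to -4.57 on the log2 scale, smaller than the -10.05 to -6.20 of Myh4. Mss51, a gene known from muscle metabolism (chromosome 14, 20482867 to 20496901), had 1.405, 2.11, 6.31 and 0.467 CPM in soleus and 307, 168, 638 and 220.1 CPM in plantaris (log2 -7.01 ± 0.83, adjusted p = 0.00108). Soleus 14 was the highest soleus library for Mss51 and soleus 15 the lowest, as for Myh4. Cntnap2, a cell adhesion protein known from axons, had 0.117, 0.222, 0.234 and 0 CPM and 4.79, 4.401, 15.8 and 7.75 CPM, and Tspan8, a tetraspanin, 3.63, 2.22, 1.52 and 1.28 CPM and 52.3, 30.5, 57.6 and 43.3 CPM. These differed by -5.75 ± 0.64 and -4.40 ± 0.33. The genes BC023105 and Gm12319 differed by -4.81 ± 0.53 and -4.20 ± 0.64.

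The sedentary mice of the same age showed the same muscle contrast in more genes. There 4953 of 13819 genes (35.8%) were called, from 5 libraries per muscle; the median standard error was 0.15 on the log2 scale against 0.19 in the trained mice. Among 13593 genes tested in both, 1950 were called in both, which is 82.5% of the trained and 39.8% of the sedentary calls, and all 1950 had the same direction. The log2 differences correlated across genes with r = 0.83, as a description, since genes are not independent replicates; the comparisons share no library. The slow sarcomere median was 4.40 in trained and 5.27 in sedentary mice, and the fast median -1.88 and -1.90. For Myh7 the log2 difference was 4.94 ± 0.52 in trained and 5.66 ± 0.80 in sedentary mice, and for Slc16a3 -4.36 ± 0.29 and -4.82 ± 0.29.

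The difference between these contrasts was tested as an interaction over the 18 aged libraries. Of 14823 genes 0 (0.0%) passed edgeR's test, with a smallest adjusted p of 0.116; 1785 (12.04%) had an unadjusted p under 0.05. DESeq2 called 183, limma with quality weights 42 and edgeR with the block 2, the keratins Krt8 and Krt18 (adjusted p = 0.0117 for both). Without plantaris PoWeR 10 edgeR called 197, and without plantaris sedentary 15 it called 2. Scaled over the 18 libraries, Krt8 had 0.1702 to 7.49 CPM in trained soleus, 0.106 to 1.48 CPM in trained plantaris, 0 to 0.0565 CPM in sedentary soleus and 0.191 to 2.42 CPM in sedentary plantaris. The genes with the smallest adjusted p in edgeR included the junction protein gene Tjp1 (-0.98 ± 0.18) and Dixdc1 (-1.53 ± 0.26). Their muscle difference was more to the plantaris side in trained mice. For Tnip1 (1.02 ± 0.21), also among them, it was more to the soleus side. Each had an adjusted p of 0.116 in edgeR. DESeq2 called Tjp1 and Tnip1 (adjusted p = 0.00254 and 0.00297) and gave no adjusted p for Dixdc1.

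Respiratory chain genes shared a direction among these differences, which edgeR did not call. An unadjusted interaction p under 0.05 was found for 13 of 13 mitochondrially encoded and 33 of 39 nuclear genes, against 12.04% of all genes, and 0 of them passed after adjustment. Their median muscle difference was -0.84 and -0.28 in trained mice and 0.10 and 0.25 in sedentary mice. Scaled over the 18 libraries, mt-Co3 had 5765 ± 504 CPM (SD, n = 4) in trained soleus and 10463 ± 2243 CPM (n = 4) in trained plantaris. In sedentary mice it had 7598 ± 402 and 7585 ± 919.9 CPM (n = 5 each). Its interaction was -0.86 ± 0.19 (adjusted p = 0.130). Of 31 fatty acid genes 16 and of 19 TCA cycle genes 11 had an unadjusted p under 0.05, and their median differences were 0.39 and -0.18 in trained against 0.70 and 0.13 in sedentary mice.

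**Figure D5:**
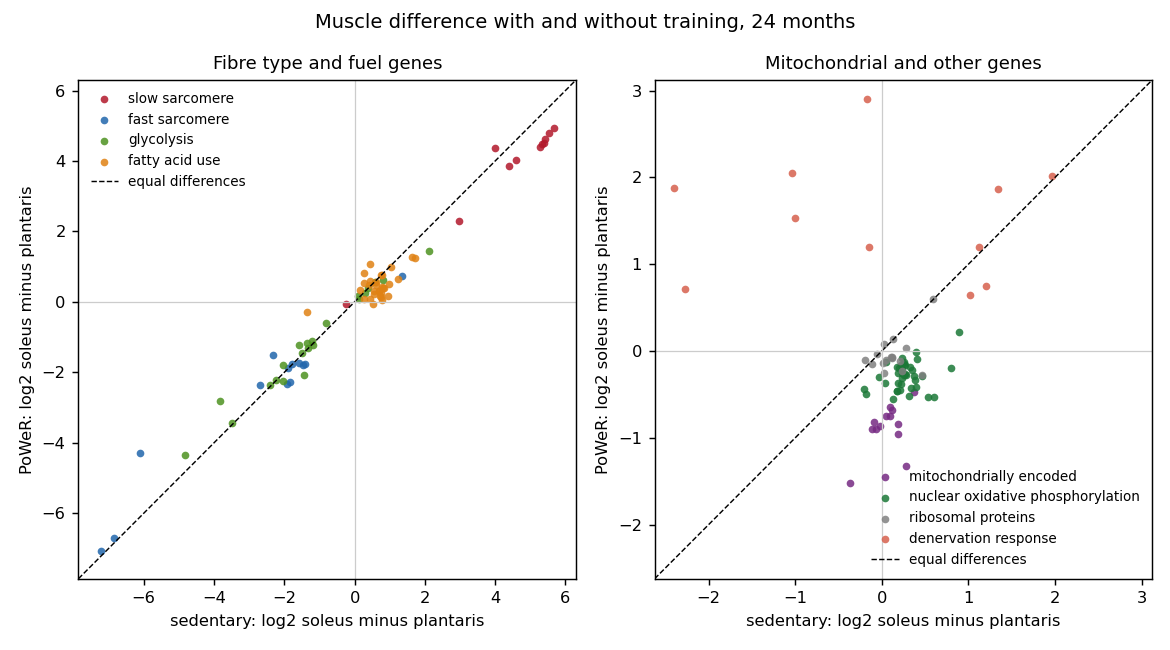
Log2 muscle difference, soleus minus plantaris, in sedentary (horizontal axis) and trained mice (vertical axis) for the members of 8 gene lists; the dashed line marks equal differences. The slow sarcomere genes lie along the line and mostly below it, with a median interaction of -0.75, and the fast sarcomere and glycolysis genes about it. Mitochondrially encoded and nuclear respiratory chain genes lie below it (-0.86 and -0.55). Denervation genes lie on both sides of it, with a median interaction of 1.32.

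Dok7, Tbx3, En1 and Ryr3, called in the trained mice alone, had an unadjusted interaction p under 0.05 and an adjusted p above the threshold. They are examples from 414 genes called in the trained mice alone, and do not describe the rest. Dok7 had 41.7 ± 4.64 CPM (SD, n = 4) in trained soleus and 21.3 ± 4.28 CPM (n = 4) in trained plantaris, on the same scale, beside 27.2 ± 3.23 and 25.2 ± 5.46 CPM (n = 5 each) in sedentary mice (interaction 0.86 ± 0.21, adjusted p = 0.149). Tbx3, En1 and Ryr3 had trained differences of 1.23, 1.21 and 2.89 and sedentary ones of 0.27, 0.22 and 0.82. In plantaris sedentary 16, Ryr3 had 8.13 CPM against 1.08 to 2.25 CPM in the other 4 sedentary plantaris libraries, and Tbx3 28.97 CPM against 10.04 to 14.9 CPM. The interactions of Tbx3, En1 and Ryr3 had adjusted p values of 0.283, 0.193 and 0.287, so none was shown to depend on training.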

How the data were processed

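RNA of 34 mouse muscle libraries was sequenced, of which the 8 of trained 24-month mice are compared here and 10 sedentary ones serve the interaction. The authors deposited 1 table of expected counts per gene for 23011 genes, in which 26.7% of values are not whole. STAR 2.7.3a, Partek, DESeq2 and build mm10 are named per the submitters' processing notes; the counting method and strandedness are not given in the sources used here. Columns not used because they matched no sample numbered 0. Soleus libraries were grouped by title and plantaris libraries by source name, and both by age and training label.

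Expected counts were rounded to whole numbers, filtered (filterByExpr, minimum count 10 and minimum total 15), scaled with TMM factors and tested with edgeR 4.0.16's quasi-likelihood test in R 4.3.3, with Benjamini-Hochberg adjustment at 0.05. Library totals of 15453386 to 21377975 limit the precision of low genes, and intervals cover the spread between 4 libraries per muscle. Shares and log2 ratios (0.5 CPM added) had two-sided exact permutation tests with scipy 1.17.1. The other tools were limma 3.58.1, DESeq2 1.42.0, Python 3.11.15, numpy 2.4.6, pandas 2.3.3 and matplotlib 3.10.9. On simulated counts for 13778 genes of this comparison, 57 of 100 genes changed 2-fold and 5 of 100 changed 1.5-fold were recovered, with 4.62% false among 65 calls. No other genes were changed there, while 2392 of 13963 genes (17.1%) were called in the data. Recovery with that many changed genes was not tested, so these figures do not give the sensitivity of the comparison itself.

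Same-numbered libraries of the muscles deviated together. Over 9620 genes the correlation of their deviations from the muscle means was 0.265 to 0.477 for the 4 pairs. For the 12 other combinations it was -0.365 to 0.0231. Deviations from a muscle mean cancel out over its 4 libraries, so the low values of the other combinations partly follow from those of the pairs. The pairing comes from the label numbers and this check.

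The members, the 46 gene lists and the 15 paralogue pairs were chosen with earlier results of these data known. Named genes are the 12 largest called, non-overlapping differences per direction at 5 CPM or more, up to 5 called members of a list per direction, the paralogue pairs, regulators and position factors, and 5 genes per direction of the interaction. Myh2, Sln, Mb, Myl6b, Rcan2, Runx1, Gdf5, Fbxo32, Trim63, Krt8 and Krt18 were chosen after their values were seen.

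Alternatives were DESeq2, limma with quality weights, a block by label number, RLE factors, library totals alone, no filter, a filter of 5 CPM, all 18 aged libraries in 1 fit, another constant in the ratios and leaving out each library. Shares per exon length and leaving out number 12 of both muscles were added after seeing the data. Promoters are RefSeq's, build GRCm38.p6. The deposited gene ends were reduced by 1 base, after which 22190 of 22428 matched symbols had GENCODE's coordinates. Protein sequences were not used here. The values of some named genes are not reported here.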

Additional observations from a re-analysis of the deposited data

Results flagged for a closer look

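The values below are those of 1 library whose gap to the nearest of the other 3 took up more than Dixon's critical share of its muscle's range. Of 364 groups of 4 examined, over 152 genes, 15 ratios, 5 shares and 10 marker sums in each muscle, 23 met this, and chance alone gives about 1 in 20.

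Plantaris 12 held more of the adipocyte markers (1337 CPM against 114 to 183), the Schwann cell markers (293 CPM against 46.9 to 55.9) and the neutrophil and mast cell markers (62.05 CPM against 11.7 to 15.7) than the other plantaris libraries. It also differed from them in Krt8 (1.53 CPM against 0.108 to 0.249) and Sv2b (0 CPM against 0.289 to 0.325).

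Soleus 10 stood apart 9 times. Its lymphocyte marker sum was above those of the other soleus libraries (3.22 CPM against 0.3500 to 0.556). Only 2 of these markers were tested, Cd3e and Cd79a, and Cd3e had 0 CPM in soleus 10, so the sum was Cd79a alone. Soleus 10 also had more Kcnc4 (30.7 CPM against 6.95 to 10.99), Ppp3ca (202 CPM against 149.8 to 156), Pvalb (396 CPM against 82.3 to 133) and Stbd1 (18.5 CPM against 9.56 to 11.05). It had less of Bnip3 (533 CPM against 608 to 622), Gm12295 (6.26 CPM against 11.9 to 12.1), Myh3 (40.3 CPM against 143 to 152) and Nr4a3 (1.11 CPM against 1.87 to 2.001). Soleus 12 had more Ampd3 (169 CPM against 116 to 125).

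Soleus 14 had more Tnnt1 (3608 CPM against 2601 to 2676) and less mt-Nd3 (389.8 CPM against 465 to 474). Soleus 15 had more mt-Co3 (6647 CPM against 5574 to 5754) and less Mhrt (4.14 CPM against 6.25 to 6.496).

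Plantaris 10 had more Rora (131 CPM against 80.2 to 85.6) and more Mhrt (0.436 CPM against 0 to 0.0611) than the other plantaris libraries. Plantaris 14 had less Odf3l2 (11.3 CPM against 28.8 to 31.9), and plantaris 15 more Dok7 (28.2 CPM against 19.01 to 20.5).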

How the results depend on the processing

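The trained comparison gave 2392 genes, and 2915 with DESeq2, 3017 with the replicate block, 3330 with limma, 2375 with RLE factors, 3110 on library totals alone, 2307 without the filter, 2232 at 5 CPM or more and 3340 over all 18 libraries. Leaving out 1 library gave 1594 (without soleus 12) to 2934 (without plantaris 12), and leaving out number 12 of both muscles 2069. The muscle by training interaction gave 0 genes, and 183 with DESeq2, 2 with the replicate block and 42 with limma with quality weights. Leaving out 1 library gave 0 to 197, with 197 without plantaris PoWeR 10 and 2 without plantaris sedentary 15. The cause of these changes was not tested.

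Of 192 named genes 176 were called, 143 of them in every fit with 1 library left out, and 35 lost the call under at least 1 alternative; 0 reversed. The block changed 4 of the 192 calls: Pfkfb3 was lost, and Rpl3, Postn and S100b were gained. It changed no other call among them. The 192 leave out Myh2, Sln, Runx1, Gdf5, Krt8 and Krt18, which were chosen after their values were seen. These passed with the block but not in the main fit. Myh2 was also called higher in soleus on library totals alone. Depth limits genes near 1 CPM, about 15 to 21 reads per library.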
